A study of Mus musculus with 2 samples.

Results

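The genes described here are 10 that mark the double positive stage of αβ T cell development or take part in building the T cell receptor: Dntt, Rag1, Rag2, Ptcra, Cd4, Cd8a, Cd8b1, Cd24a, Aqp11 and Arpp21. They were chosen by name, as the rows of the deposited values whose platform gene symbol is one of them, rows with several symbols included, and all 10 had 1 row each among 30143 genes with a row. RNA came from Vγ6 γδ T cells, a subset whose receptor uses the Vγ6 chain, sorted by flow cytometry from thymi of C57BL/6 mice aged 0 days. The mice were MHC class II KO, which lack the surface molecules that present peptide to CD4 T cells, or WT. Each genotype had 1 array, and the labels name no agent given to either group. The disrupted class II gene and any pooling of animals are not named in the labels. The comparison of the genotypes addressed how Vγ6 cells differ in gene expression when MHC class II is missing.

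With 1 array per genotype there is no replicate, so no difference below has an error or a test, and every value describes these 2 arrays. The number of arrays limits the precision. Signals are the log2 of the deposited intensities, and a difference is the log2 signal in MHC class II KO cells minus that in WT cells. The background of an array is the 95th percentile of 1228 olfactory receptor rows, at a log2 signal of 5.86 for MHC class II KO cells and 5.94 for WT cells. A gene above it on 1 array has only a bound, the brighter signal over the other array's background, and a gene above it on neither gets no fold. The class II chain genes, which check the genotypes in part, were lower in MHC class II KO cells. H2-Ab1 had a log2 signal of 6.67 in MHC class II KO cells and 7.68 in WT cells, and H2-Eb1 5.98 and 6.95. Both were still above background in MHC class II KO cells. H2-Aa was above background in WT cells alone, with a bounded difference of -0.22. Of the 14495 genes that passed background on 1 or both arrays, 56.4% had a difference above 0 and the median was 0.04. In a bulk sample, fewer cells of a type and less RNA per cell cannot be told apart.

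T cell receptor genes are assembled by V(D)J recombination. The RAG1 and RAG2 proteins cut the DNA beside the segments, terminal deoxynucleotidyl transferase, the product of Dntt, adds untemplated bases to the open ends, and the end joining machinery seals them. Most αβ thymocytes pass through a stage at which they carry the pre-T cell receptor, made with the product of Ptcra, and then both CD4 and CD8, while γδ T cells leave this path earlier. The fetal mouse thymus has little terminal transferase, and the Vγ6 receptors made there are known for junctions without added bases.

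All 10 genes had a higher measured signal in MHC class II KO cells than in WT cells, as did 56.4% of all genes above background. For Dntt, Ptcra and Rag2 this direction rests on values that were not above background. Above background were 7 in both genotypes, Dntt and Ptcra in MHC class II KO cells alone, and Rag2 in neither. The bounded differences of the 9 ran from 0.36 for Rag1 to 1.88 for Dntt, with a median of 0.85, and the median of the 7 was also 0.85. Dntt and Ptcra passed background through the genotype in which they were higher, so they could only differ upwards. Dntt, Cd8b1 and Aqp11 were at least 2-fold higher, a threshold that 0.738% of all genes above background reached, and none was at least 2-fold lower, against 0.807% of all genes. Cd24a, Arpp21 and Cd8a made it 6 that were at least 1.5-fold higher, against 3.74% of all genes, and none was at least 1.5-fold lower, against 2.66%. Rag2, which encodes the partner of RAG1, had log2 signals of 5.65 in MHC class II KO cells and 5.30 in WT cells, which give no fold. The 10 were listed with earlier results of these arrays known, so these counts describe the genes and are no independent sign of a shift.

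**Figure D1:**
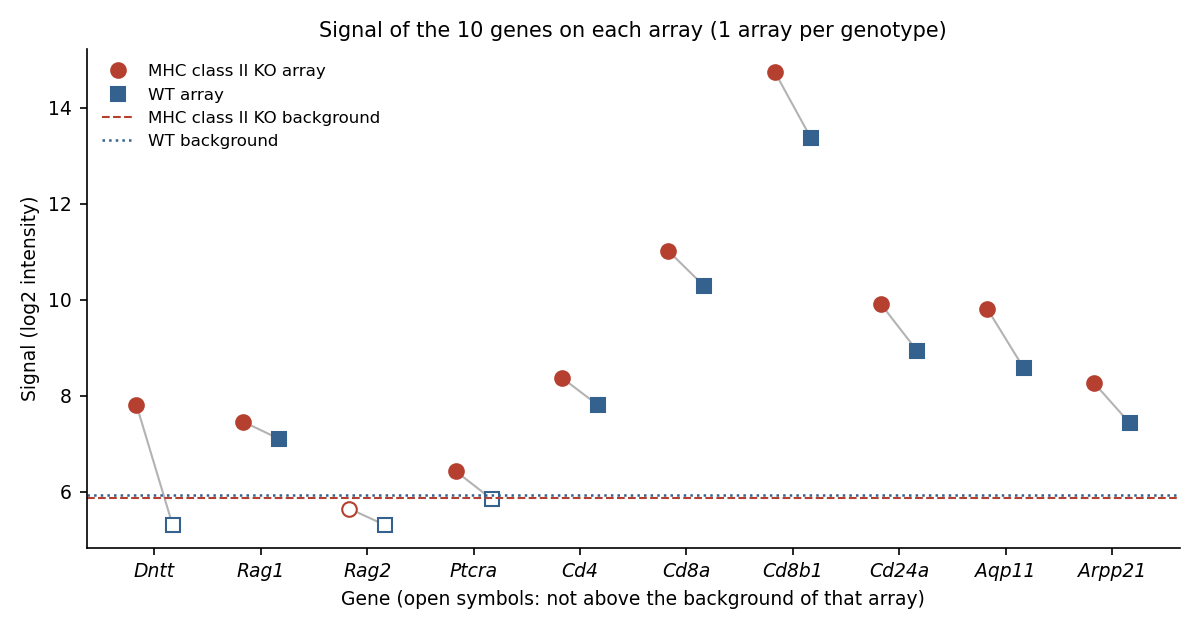
Log2 signal of each gene in MHC class II KO cells (circles) and WT cells (squares), 1 array each, with the background of each array as a horizontal line and open symbols for values not above it. Each circle lies higher than the square beside it, and for Dntt and Ptcra the WT value is not above background. Levels can be compared within a gene and not between genes, since each gene is read by its own probes.

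Among the recombination genes, Dntt had the largest difference and Rag1 a small one. Dntt had a log2 signal of 7.82 in MHC class II KO cells and 5.31 in WT cells, where it was not above background. As intensities these are 225 in MHC class II KO cells, 3.87 times the background, and 39.7 in WT cells, 0.647 times the background. It was therefore higher in MHC class II KO cells by at least 3.68-fold, a bound that rests on where background is set. With the 99th percentile of the olfactory receptor rows in place of the 95th it was 0.81 on the log2 scale, which is under 2-fold and below the differences of Cd8b1, Aqp11, Cd24a and Arpp21 given further on. The place of Dntt as the highest of the 10 therefore holds for the 95th percentile and not for the 99th.

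Rag1 had a log2 signal of 7.46 in MHC class II KO cells and 7.10 in WT cells, a difference of 0.36, or 1.28-fold. It was above background on both arrays, at 3.03 times the background in MHC class II KO cells and 2.24 times in WT cells. Of the 1000 genes nearest in signal, 128 had a difference at least as high, so such a value was common at that brightness. The row also carries the symbol B230118H07Rik, a gene next to the Rag genes that RefSeq now calls Iftap, so the signal cannot be assigned to Rag1 alone. Rag2, which lies beside Rag1, was below background, as given above.

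Ptcra, which encodes the pre-T cell receptor α chain that pairs with a newly made β chain, was close to background. Its log2 signal was 6.43 in MHC class II KO cells and 5.84 in WT cells, where it was not above background. It was higher in MHC class II KO cells by at least 1.41-fold. The measured difference of 0.59 would pass 1.5-fold by a small margin if the WT value were taken at face value.

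The sequences before the start sites of these 3 recombination and pre-receptor genes are shown because their products act in building the receptor and their values were unlike: Dntt was well above background in MHC class II KO cells alone, Ptcra barely so, and Rag1 was above it in both genotypes. Each is the 250 bases before the RefSeq start site in build GRCm38.p6, written 5′ to 3′ on the strand of the gene. Dntt lies at chr19:41029025-41029274 (plus strand), Rag1 at chr2:101649533-101649782 (minus strand) and Ptcra at chr17:46763713-46763962 (minus strand). Capitals mark CAGCTG, a form of the E-box that E proteins such as E2A and HEB bind in thymocytes, and TGTGGT, the core of the Runx motif, each searched on both strands with no overlap between the matches shown.
Dntt: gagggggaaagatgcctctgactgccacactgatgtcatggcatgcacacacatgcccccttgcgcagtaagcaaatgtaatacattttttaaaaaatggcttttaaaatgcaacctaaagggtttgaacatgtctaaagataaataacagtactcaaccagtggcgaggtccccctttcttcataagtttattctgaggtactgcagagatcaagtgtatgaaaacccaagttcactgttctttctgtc
Rag1: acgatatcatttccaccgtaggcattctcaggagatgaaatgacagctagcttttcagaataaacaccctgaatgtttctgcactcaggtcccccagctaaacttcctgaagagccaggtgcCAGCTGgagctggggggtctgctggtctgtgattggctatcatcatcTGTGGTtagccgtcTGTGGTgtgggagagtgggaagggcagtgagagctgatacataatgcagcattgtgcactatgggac
Ptcra: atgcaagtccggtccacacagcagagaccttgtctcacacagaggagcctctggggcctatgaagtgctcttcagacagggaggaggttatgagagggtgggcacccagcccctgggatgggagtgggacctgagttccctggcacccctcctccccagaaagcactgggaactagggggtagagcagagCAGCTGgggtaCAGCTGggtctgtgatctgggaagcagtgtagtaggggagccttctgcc

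The Ptcra window held CAGCTG at 2 places, starting 60 and 49 bases before the start site, and no TGTGGT. The Rag1 window held CAGCTG at 1 place, 128 bases before the start, and TGTGGT at 2 places, 81 and 67 bases before it. The Dntt window held neither. Of 32851 RefSeq windows of the same length, 13.0% held CAGCTG and 14.0% held TGTGGT on either strand. RefSeq windows, 15 in all, were found for 7 of the 10 genes. Of these 7, 3 held CAGCTG in at least 1 window (Rag1, Ptcra and Arpp21) and 2 held TGTGGT (Rag1 and Arpp21). Arpp21 has 9 start sites, so these counts by gene cannot be set against the shares by window. A match is a description of the letters and no measure of binding.

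The co-receptor genes were all above background on both arrays and all higher in MHC class II KO cells, by unequal amounts. Cd8b1 encodes the β chain of CD8, the co-receptor for MHC class I, which on conventional thymocytes pairs with the α chain. It had a log2 signal of 14.75 in MHC class II KO cells and 13.38 in WT cells, a difference of 1.38, or 2.60-fold. It was 28th of 14495 genes, and 1 of the 1000 genes nearest in signal was as high. Its intensity was 474 times the background in MHC class II KO cells and 173 times in WT cells, so neither value is limited by background.

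Cd8a encodes the α chain, which also forms CD8αα pairs on some γδ T cells and on a set of dendritic cells. Its log2 signal was 11.02 in MHC class II KO cells and 10.28 in WT cells, a difference of 0.74, or 1.67-fold, with 17 of the 1000 nearest genes as high. The β chain gene thus differed more than the α chain gene, which lies next to it.

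Cd4 encodes the co-receptor for MHC class II. Its log2 signal was 8.37 in MHC class II KO cells and 7.80 in WT cells, a difference of 0.57, or 1.49-fold, just under the 1.5-fold threshold. Of the 1000 genes nearest in signal, 64 were as high, a larger share than for either CD8 chain. The 3 co-receptor genes therefore stood in the order Cd8b1, Cd8a and Cd4 by difference. Without replicates, whether neighbours in this order differ beyond their spread is not known.

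**Figure D2:**
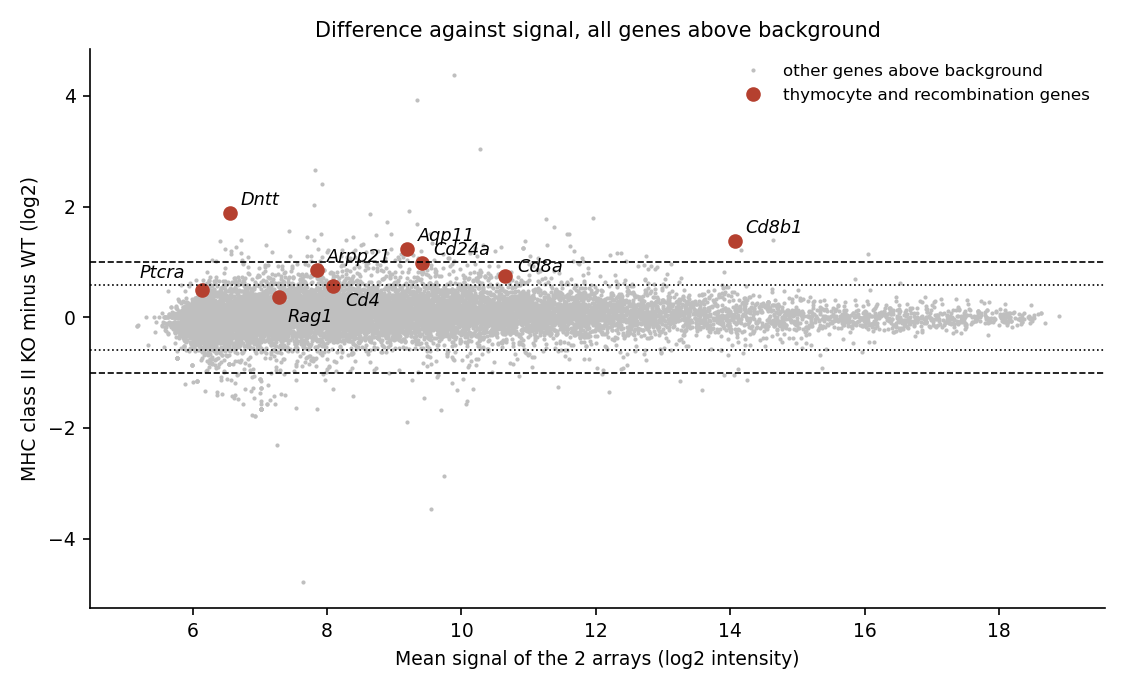
MHC class II KO minus WT difference (log2, bounds where 1 array was not above background) against the mean log2 signal of the 2 arrays for 14495 genes, with dashed lines at 2-fold and dotted lines at 1.5-fold. Dntt, Cd8b1 and Aqp11 lie above the upper dashed line, Cd24a, Arpp21 and Cd8a lie between the upper lines, and Cd4, Ptcra and Rag1 lie under the dotted line.

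The other 3 genes, higher in MHC class II KO cells too, encode proteins outside recombination and co-receptor function. Cd24a encodes heat stable antigen, a small glycosylated surface protein of immature thymocytes, both αβ and γδ, that is lost on maturation. It had log2 signals of 9.91 in MHC class II KO cells and 8.93 in WT cells, a difference of 0.97, or 1.96-fold, just short of 2-fold. Since immature γδ thymocytes carry it too, it does not separate them from double positive cells.

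Aqp11, a member of the aquaporin family of channel proteins, had log2 signals of 9.80 in MHC class II KO cells and 8.58 in WT cells. Its difference of 1.23, or 2.34-fold, placed it 47th of 14495 genes, with 5 of the 1000 nearest genes as high. Arpp21, a regulator of RNA that is also named Tarpp and is known from immature thymocytes and neurons, had log2 signals of 8.27 in MHC class II KO cells and 7.42 in WT cells. Its difference was 0.85, or 1.80-fold, with 20 of the 1000 nearest genes as high.

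The 10 genes lie on 7 chromosomes, and the protein-coding genes beside them are given as a description of each locus. Rag1 and Rag2 lie side by side, and so do Cd8a and Cd8b1. In the order of RefSeq protein-coding genes, 16 genes that are not among the 10 flank them, 14 had a row of their own and 8 were above background. The differences of these 8 ran from -0.32 for Traf6, beside Rag1, to 0.10 for Cnpy3, beside Ptcra. None of the 8 was 1.5-fold higher or lower, against 3.74% and 2.66% of all genes, so among so few a count of 0 does not set them apart from other genes. Rmnd5a, which follows Cd8a, had a log2 signal of 10.33 on both arrays. Clns1a, beside Aqp11, differed by 0.05 and Pdcd6ip, beside Arpp21, by 0.08. The genes on both sides of Dntt and of Cd4 were below background on both arrays.

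**Figure D3:**
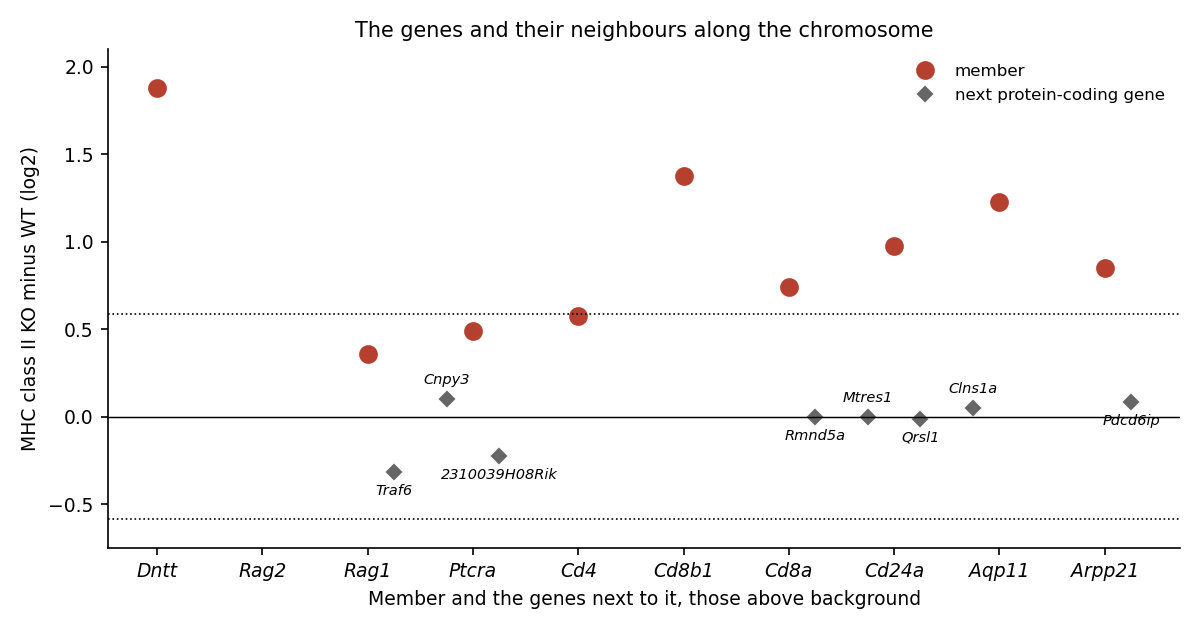
MHC class II KO minus WT difference (log2, bounded) of each gene above background (circles) and of the protein-coding genes next to it that were above background (diamonds), with dotted lines at 1.5-fold. The circles lie between 0.36 and 1.88 and the diamonds between -0.32 and 0.10; Rag2 has no circle because it was below background on both arrays.

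The rest of the recombination machinery was compared as a list of 14 end joining genes and cofactors of the RAG proteins. They were listed by function with earlier results of these arrays known, so their counts are no independent sign of a shift. Of 12 with a row, every one was above background in both genotypes and had a positive difference, where 56.4% of all genes did, and their median was 0.34, against 0.04 for all genes. At least 1.5-fold higher were 2 of the 12, Lig4 and Tdp1, against 3.74% of all genes, and none was as much lower, against 2.66%. Lig4, the ligase that seals the joined ends, had log2 signals of 8.15 in MHC class II KO cells and 7.20 in WT cells, a difference of 0.96. Tdp1, which clears adducts from DNA ends and is a general repair enzyme, differed by 0.66. The Ku subunit genes Xrcc6 and Xrcc5, whose products hold the broken ends, differed by 0.58 and 0.21, and Prkdc, the kinase that joins them, by 0.17. None of the 12 reached 2-fold, against 0.738% of all genes higher and 0.807% lower. Among so few genes a count of 0 does not set them apart.

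Other genes known to be high in double positive thymocytes went both ways. Of 18 listed, 17 had a row and were above background on both arrays, with a median of 0.25. A positive difference was found for 12 of the 17, where 56.4% of all genes had one. At least 1.5-fold higher were 4, against 3.74% of all genes, and 1 was as much lower, against 2.66%. Slamf6, a receptor of the SLAM family, differed by 1.17 and Themis, a signalling protein needed for positive selection, by 0.74. Bcl11b, a factor of T cell commitment, differed by 0.66 and Cd5, a negative regulator of receptor signalling, by 0.63. Ccr9, a chemokine receptor that double positive cells carry in quantity, went the other way, with log2 signals of 7.44 in MHC class II KO cells and 8.74 in WT cells and a difference of -1.29. Satb1 and Tox, nuclear proteins of the double positive stage, differed by 0.07 and 0.03.

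The transcription factors known to act on the Rag, Cd4 and Cd8 genes had a median near 0, with single genes away from it on both sides. Of 18 listed, 15 had a row and were above background on both arrays. At least 1.5-fold higher was 1, against 3.74% of all genes, and none was as much lower, against 2.66%. The median was 0.03. That median turned negative, at -0.0085, once the median of all genes was subtracted. The one that passed was Bcl11b. The E protein genes Tcf3 and Tcf12 differed by 0.16 and -0.07. Runx3, which silences Cd4 in CD8 T cells, differed by 0.02, and Zbtb7b, which directs the CD4 fate, by 0.19. Lef1 differed by -0.51, Cbfb, the partner of Runx proteins, by 0.40 and Myb by 0.37. The CD3 chain genes Cd3d, Cd3g and Cd247 differed by 0.08, 0.30 and -0.05, and with Cd3e their median was 0.02, or -0.02 after the same subtraction. No row names Trac, Trbc1 or Trbc2, alone or with other symbols, so they were not analysed here.

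**Figure D4:**
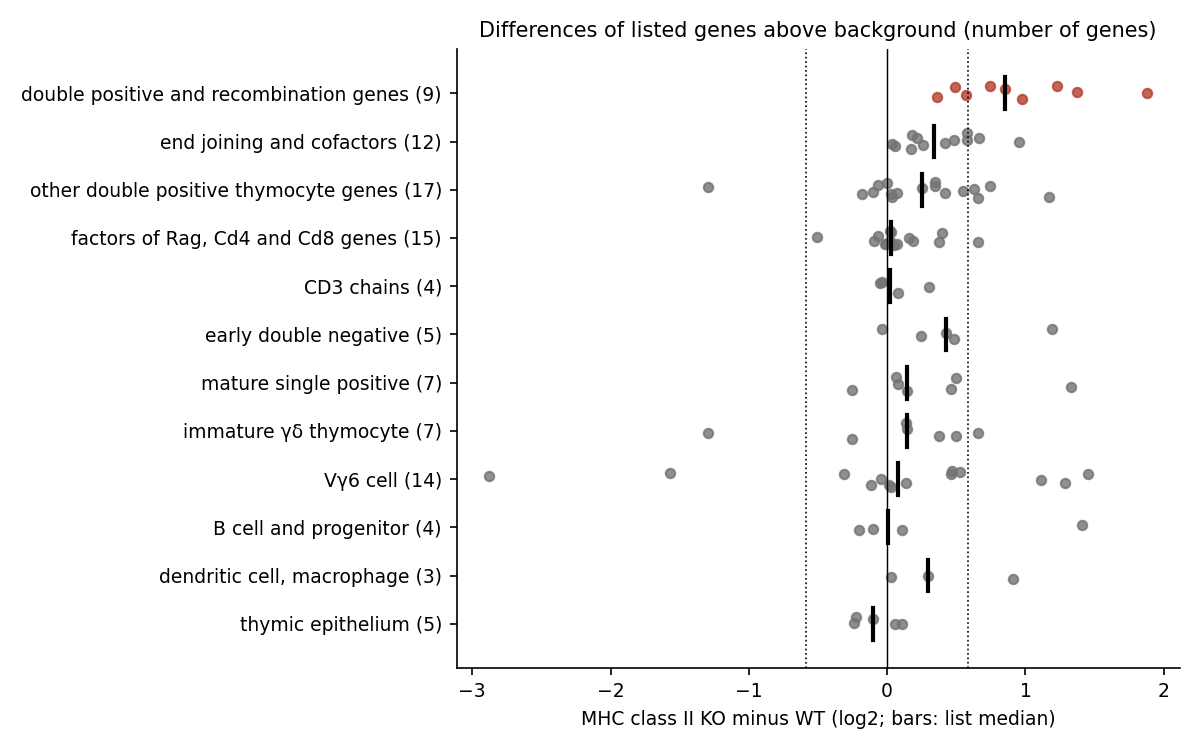
MHC class II KO minus WT difference (log2, bounded) of each gene above background in 12 lists, with the number of genes in parentheses, the list median as a bar and dotted lines at 1.5-fold. The 9 double positive and recombination genes all lie right of 0, as do the 12 end joining genes, while the Vγ6 list spreads from -2.88 to 1.46.

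Markers of cells that the sort could hold were read beside these values, and their part in the differences was not tested. Of the Vγ6 list, 14 of 15 genes had a row and all 14 were above background on both arrays. The summed intensity, over the genes above background, was 187624 in MHC class II KO cells and 185148 in WT cells, mostly from Il23r, Cd163l1 and Maf. Such sums follow their brightest genes, so they are read between genotypes within a list and not between lists. Where a gene was above background on 1 array, its value on the other was also added. The Vγ6 chain gene Tcrg-V6 had log2 signals of 12.33 in MHC class II KO cells and 12.64 in WT cells. The cytokine genes Il17f and Il17a differed by -2.88 and -1.57, the only 2 at least 2-fold lower, against 0.807% of all genes. At least 2-fold higher were 3, against 0.738%: Ccr6, a chemokine receptor gene, at 1.46, Tmem176b at 1.28 and Tmem176a at 1.11. The 9 double positive and recombination genes above background summed to 32660 in MHC class II KO cells and 13375 in WT cells, mostly from Cd8b1. Of 10 immature γδ thymocyte markers, 7 had a row, with sums of 48983 in MHC class II KO cells and 35226 in WT cells, mostly from Il7r, the interleukin 7 receptor gene. Their median difference was 0.14. At least 1.5-fold higher was 1, Bcl11b at 0.66, against 3.74% of all genes, and 1 was as much lower, Ccr9 at -1.29, against 2.66%. Il7r differed by 0.50, Id3 by 0.37, Sox4 and Sox13, transcription factor genes, by 0.14 each, and Cd28, a co-stimulatory receptor gene, by -0.25.

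Of 15 early double negative markers, 5 were above background, with sums of 5063 in MHC class II KO cells and 3159 in WT cells. Il2ra, the interleukin 2 receptor α chain gene, differed by 1.19, Notch1 by 0.48, Cd44 by 0.42, Dtx1 by 0.24 and Kit by -0.04. The median of the 5 was 0.42. Il2ra was the 1 at least 1.5-fold higher, against 3.74% of all genes, and none was as much lower, against 2.66%. The progenitor genes Flt3, Lyl1 and Lmo2 were not above background on either array. Of 10 mature single positive markers, 7 were above background, with sums of 43649 in MHC class II KO cells and 31245 in WT cells, again mostly from Il7r. Their median difference was 0.15. At least 1.5-fold higher was 1 of the 7, Ccr4, a chemokine receptor gene, at 1.33, against 3.74% of all genes. None was as much lower, against 2.66%. Itgb7, an integrin chain gene, differed by 0.46, S1pr1, Ccr7 and Klf2, genes of exit from the thymus and homing, by 0.15, 0.08 and 0.07, and Cd28 by -0.25.

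Dntt and the Rag genes are also used by B cell progenitors, most of whose markers were not above background. Of 12 listed, 4 were above it and Cd79a, Ebf1, Pax5 and Igll1 were not. The list summed to 42507 in MHC class II KO cells and 16785 in WT cells, mostly from Ighm, the μ heavy chain gene, which differed by 1.41. Cd79b, a chain of the B cell receptor complex, was well above background in each genotype, at 10.19 in MHC class II KO cells and 10.08 in WT cells on the log2 scale, a difference of 0.11. Vpreb2 differed by -0.20, and Vpreb1 was above background in WT cells alone.

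Cd4 and Cd8a are carried by some dendritic cells and macrophages, of whose 13 markers 3 were above background. They summed to 651 in MHC class II KO cells and 405 in WT cells, with Cd68 at a difference of 0.91, Siglech at 0.03, and Lyz2 above background in MHC class II KO cells alone. Itgax, Xcr1 and Zbtb46 were not above background on either array. Of 10 thymic epithelial markers, 5 were above background, with sums of 425 in MHC class II KO cells and 472 in WT cells. Krt8 and Epcam were above it in WT cells alone, and so lower in MHC class II KO cells by at least 1.18-fold and 1.17-fold, Ly75 was above it in MHC class II KO cells alone, and Foxn1 was above it in neither.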

How the data were processed

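RNA from sorted Vγ6 γδ T cells was measured on 1 array per genotype. Per the labels, it was labelled with a whole-transcript GeneChip kit. Per the submitters' processing notes, the authors used Affymetrix Expression Console 1.4.1 and RMA, which corrects background, normalizes and combines probes, with no variant or settings stated there. The authors deposited linear intensities for 65956 rows, which ranged from 6.71 to 487523 in MHC class II KO cells and from 6.45 to 480711 in WT cells. Of these, 742 rows in MHC class II KO cells and 767 in WT cells pass 65535, the ceiling of a 16-bit scanner, by a step the sources do not describe, which could change the size of every fold.

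The log2 of each intensity was taken in Python 3.11.15. Platform symbols were updated through RefSeq gene identifiers (assembly GRCm38.p6), which matched 22818 rows. Rows with 1 symbol were used, 30604 in all, plus the Rag1 row, and of several rows of a gene the brightest. Steps were tested on simulated shifts in brighter genes above background on both arrays. Bounds such as those of Dntt and Ptcra were not covered by it. Members and lists were chosen with earlier results of these data known. Named are all 10 members, the 3 genes of each other list with the largest absolute difference, and a fixed set of 16 genes (Tcrg-V6, Lig4, Runx3 and others, some not reported here). Other genes, such as Cd5, Satb1, Tox, markers below background and the flanking genes, were named after their values were seen. Alternatives covered scaling, background, filters and rows.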

Additional observations from a re-analysis of the deposited data

How the results depend on the processing

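With 10 alternatives, the counts of the 10 genes stayed within 1.5 times. The count at least 2-fold higher ran from 2 to 3 and that at least 1.5-fold higher from 5 to 7, none was lower at either threshold, and the median ran from 0.80 to 0.91. Over the same alternatives, 93 to 120 of all genes were at least 2-fold higher and 449 to 669 at least 1.5-fold higher. Dntt was the gene that left the 2-fold count, with background at the 99th percentile (0.81 on the log2 scale, which put it under 4 of the other genes) or when both arrays had to be above background, which leaves it out. It stood at 2.51 with background at the median or with no filter, and these 2 settings also took Ptcra past 1.5-fold. With background at the 99th percentile Ptcra was above it on neither array, and requiring both arrays left Ptcra out too. For Cd8b1 the range was 1.34 to 1.39, for Aqp11 1.19 to 1.23, for Cd24a 0.93 to 0.97 and for Rag1 0.32 to 0.36. Genes of the other lists at least 1.5-fold lower numbered 3, and 5 with background at the median and 5 with no filter. The B cell list median of -0.05 was above 0 under 4 alternatives that change the background or its filter, and 0.76 with background at the 99th percentile. The early double negative list median of 0.42 was -0.04 with background at the median and -0.009 with no filter. That of the dendritic cell and macrophage list was 0.37 with the measured difference of Lyz2 and 0.30 with the bound of Lyz2. It ran from -0.02 with no filter to 0.91 with background at the 99th percentile.

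A value was taken as moved when it changed by more than 0.24, the SD of the gap between 2 rows of a gene over 160 genes. Signal over background limits Dntt and Ptcra to bounds and gives no fold for Rag2. No paired analysis was possible because each genotype has 1 array.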

Other observations

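Listed genes that share a row with another symbol were left out of the counts, and none of their rows above background was 1.5-fold apart. The row that names Gata3, a factor of T cell commitment, differed by 0.16, that of Hmgb1, a cofactor of the RAG proteins, by 0.08, and that of Patz1, a repressor of Cd8 genes, by 0.28. The row that names Trdc, the δ chain constant gene, had log2 signals of 15.06 in MHC class II KO cells and 14.93 in WT cells.

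Exactly equal values on both arrays were found in 845 of 65956 rows, 1.28% of them, and 134 of these rows were above background. None was a row of the 10 genes, and 2 were rows of listed genes, Ms4a1 and Spi1, both not above background. Outside the lists, Mtres1, which precedes Cd24a, had such a row, at a log2 signal of 7.45 on both arrays.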
